A study of Mus musculus with 10 samples.

Results

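The 40 genes described here encode proteins of the cell division cycle. They were chosen by gene name, and all 40 were among the 30894 genes read by the array. Each was represented by 1 feature. For this description they were divided by role into 4 genes of entry into the cycle (G1/S entry), 13 of DNA replication and 23 of mitosis. Kidney RNA came in 5 samples from mice given 60 mg/kg per day of cyclosporin A (CsA), a calcineurin inhibitor used as an immunosuppressant, and in 5 samples from mice given only its solvent, cremophore (vehicle). Injections were subcutaneous and daily for 7 days. All mice were 10 to 12 weeks old, had a C57BL/6 background and ate low sodium chow (0.05%). They came from a line in which doxycycline, through Pax8-rtTA, deletes Vhl in Pax8-expressing tubule cells, and no label states if doxycycline was given. Between CsA and vehicle, Vhl differed by -0.00 ± 0.09 (SE) log2 units (limma adjusted p = 0.993). The labels do not state that each sample came from a separate animal, so each p-value reflects only how far these samples spread, which may be technical.

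A resting cell re-enters the cycle when D-type and E-type cyclins, with their kinases, free E2F transcription factors from the retinoblastoma proteins. E2F then drives genes that load the MCM helicase onto DNA and make deoxynucleotides, and later a second wave of genes, driven through the MuvB complex with B-Myb and FoxM1, builds the mitotic spindle and divides the cell. In the adult kidney few tubule cells divide, but surviving tubule cells can do so after injury, and infiltrating blood cells can divide too.

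The arrays were closely alike, with medians between 5.14 and 5.21 log2 units and correlations across genes between 0.976 and 0.989. Xist, which is transcribed from the inactive X chromosome of females, stood at 9.15 or more in CsA replicates 1 and 2, where 4 Y-linked genes averaged at most 4.03. The other 8 arrays carried Xist at no more than 4.82 and a Y-linked mean of at least 6.91. The labels do not mention sex. The CsA group thus held 2 samples with female RNA and 3 with male RNA, against 5 with male RNA in the vehicle group, and the main results, with the members whose difference moved most, are also given for the 8 arrays with male RNA (males only). Kidney markers were strongly expressed, with Slc34a1, the proximal tubule phosphate transporter, at 12.72 ± 0.05 in CsA and 12.72 ± 0.04 in vehicle, and uromodulin (Umod) at 12.14 ± 0.06 and 12.08 ± 0.02 (SD, n = 5 each).

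Most of the mitosis genes gave a dim signal. No background probes were used here, so 1125 olfactory receptor genes, which kidney expresses little, served for orientation, a choice made after the values were seen. Their median was 2.84 and their 95th percentile 5.16 log2 units. The mean over the 10 arrays was at or below that percentile for 14 of 23 mitosis genes, 2 of 13 replication genes and 2 of 4 G1/S genes, as for 48.1% of all genes. The median level was 4.63 for mitosis, 6.08 for replication and 5.26 for all genes. Ccnd1, which encodes cyclin D1, was the brightest member at 9.08, and the sliding clamp gene Pcna the brightest replication gene at 7.74. Bub1, a kinase of the spindle checkpoint, was dimmest at 3.16. Levels of different genes depend on their probes and are not compared further. Differences of dim genes are compressed on the array scale.

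**Figure D1:**
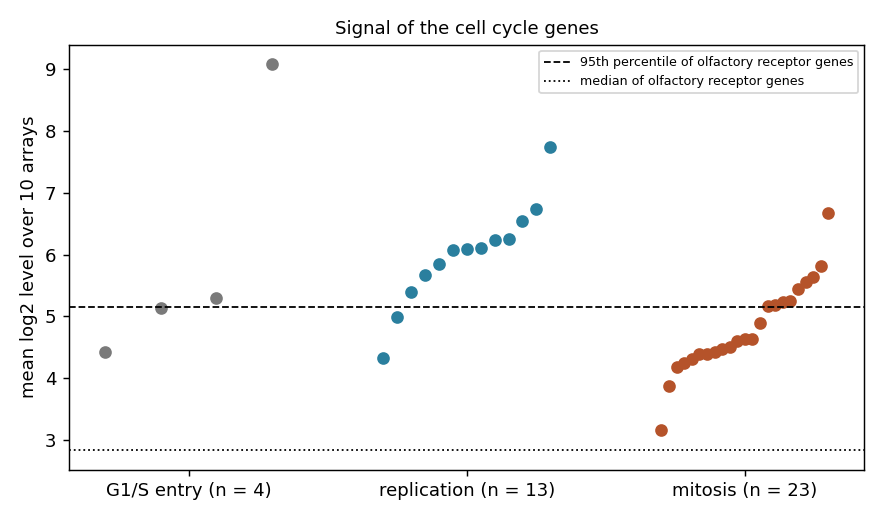
Mean log2 level over 10 arrays (vertical axis) of each G1/S entry, replication and mitosis gene, each point being 1 gene, with the median (dotted, 2.84) and 95th percentile (dashed, 5.16) of the olfactory receptor genes. The mitosis genes crowd around and below the dashed line, with 14 of 23 at or under it.

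The replication and mitosis genes also differed in their promoter sequence, which the choice by name did not use. RefSeq windows (GRCm38.p6) from 250 bases before to 50 bases after a gene's start were present for 33 members, in 36 windows. No window was present for Ccnd1, Ccne2, Mcm4, Ccna2, Aurkb, Foxm1 and Kif20a. Ect2 and Prc1 have 2 overlapping windows each, and Mcm7 has 2. The 3 motifs below were searched on both strands, by exact letters, and matches were allowed to overlap. They were the cell cycle genes homology region (CHR; TTTGAA or TTCGAA), which MuvB complexes bind, the CCAAT box (CCAAT), which NF-Y binds, and the E2F site (TTTCCCGC, TTTCGCGC, TTTGCCGC or TTTGGCGC). A CHR stood in 17 of 21 mitosis windows, 2 of 13 replication windows and 19.2% of all 32851 windows. An E2F site stood in 6 of 13 replication windows, 1 of 21 mitosis windows and 2.26% of all windows. The CCAAT box was found in 19 of 21 mitosis and 9 of 13 replication windows, against 37.4% of all windows, and all 17 mitosis windows with a CHR also held a CCAAT box, a pair found in 7.52% of all windows. A match is a description of the letters and not a sign that a factor binds there.

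The windows of 5 genes are printed 5′ to 3′ with the matched letters of any of the 3 motifs, on either strand, in capitals. They are those of the 3 genes that passed the test below, Tk1, Kif23 and Ect2, and of a replication gene and a mitosis gene with several matches, Mcm5 and Mki67.
Tk1, chr11:117825965-117826264, minus strand: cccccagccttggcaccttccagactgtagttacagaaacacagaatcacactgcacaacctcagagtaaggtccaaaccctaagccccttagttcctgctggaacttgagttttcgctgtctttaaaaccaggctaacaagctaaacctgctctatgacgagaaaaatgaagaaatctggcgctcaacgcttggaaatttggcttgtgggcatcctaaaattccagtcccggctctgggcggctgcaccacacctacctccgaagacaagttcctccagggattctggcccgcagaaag
Kif23, chr9:61946750-61947049, minus strand: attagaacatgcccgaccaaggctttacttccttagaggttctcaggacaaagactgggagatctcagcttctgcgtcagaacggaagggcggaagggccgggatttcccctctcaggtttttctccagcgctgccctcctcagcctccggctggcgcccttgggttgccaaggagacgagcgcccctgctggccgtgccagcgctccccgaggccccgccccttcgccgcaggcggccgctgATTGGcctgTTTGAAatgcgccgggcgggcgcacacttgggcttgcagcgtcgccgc
Ect2, chr3:27153805-27154104, minus strand: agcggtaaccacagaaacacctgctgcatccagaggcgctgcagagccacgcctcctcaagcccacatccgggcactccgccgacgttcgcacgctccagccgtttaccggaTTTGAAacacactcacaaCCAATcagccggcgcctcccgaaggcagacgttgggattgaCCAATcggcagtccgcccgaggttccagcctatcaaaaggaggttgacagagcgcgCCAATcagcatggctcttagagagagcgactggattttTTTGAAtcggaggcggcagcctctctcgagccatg
Mcm5, chr8:75109259-75109558, plus strand: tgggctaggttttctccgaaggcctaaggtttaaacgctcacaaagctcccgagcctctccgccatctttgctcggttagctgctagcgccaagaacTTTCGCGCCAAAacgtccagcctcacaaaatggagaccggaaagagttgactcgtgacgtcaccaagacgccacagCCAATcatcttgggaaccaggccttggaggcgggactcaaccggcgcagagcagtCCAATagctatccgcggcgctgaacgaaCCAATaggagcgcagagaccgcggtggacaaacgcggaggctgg
Mki67, chr7:135716330-135716629, minus strand: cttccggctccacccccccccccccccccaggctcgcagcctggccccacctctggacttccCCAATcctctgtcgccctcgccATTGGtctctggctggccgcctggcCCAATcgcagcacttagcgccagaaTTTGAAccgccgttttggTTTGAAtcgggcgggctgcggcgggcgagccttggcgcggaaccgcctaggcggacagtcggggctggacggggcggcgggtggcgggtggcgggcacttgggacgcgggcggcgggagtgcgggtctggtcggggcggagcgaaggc
The Tk1 window held none of these letters. Kif23 held 1 CHR close to a CCAAT box in reverse orientation, Ect2 held 2 CHRs and 3 CCAAT boxes, Mcm5 held 2 overlapping E2F sites and 3 CCAAT boxes, and Mki67 held 2 CHRs and 3 CCAAT boxes.

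**Figure D2:**
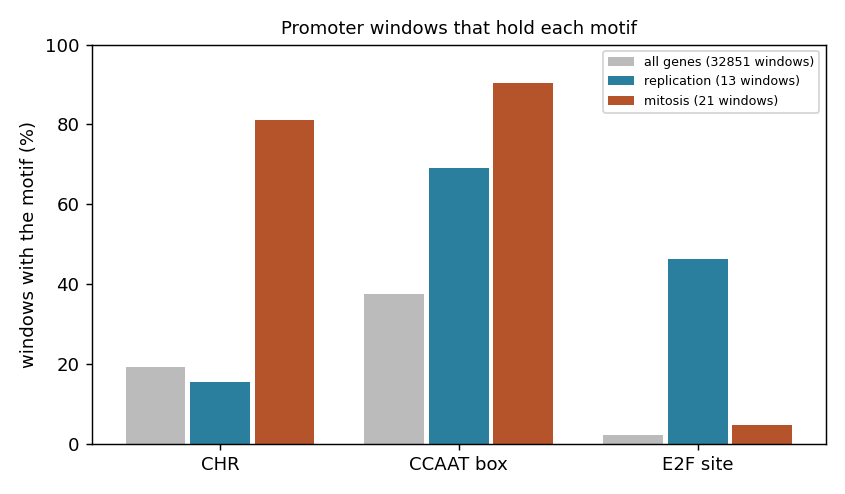
Share of promoter windows (vertical axis, percent) that hold a CHR, a CCAAT box or an E2F site, for all 32851 windows (grey), the 13 replication windows (blue) and the 21 mitosis windows (orange). The CHR stands out among mitosis windows (17 of 21) and the E2F site among replication windows (6 of 13).

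After 7 days of CsA few of the 40 genes passed the test, and their differences were small. The salvage enzyme gene Tk1 and the cytokinesis motor gene Kif23 rose and the cytokinesis regulator gene Ect2 fell, each by at most 1.30-fold. Nusap1, 1.41-fold lower, and Mki67, 1.32-fold higher, differed by more without passing. Limma called 3 of the 40 members over all genes (Benjamini-Hochberg adjusted p under 0.05), against 6.49% of all genes. Of these, 2 were higher (2.95% of all genes) and 1 lower (3.54% of all genes), a share near that of genes in general. Restricted to males, limma called 0 of the 40, against 3.17% of all genes (1.53% higher and 1.64% lower), and 13 had an unadjusted p under 0.05 (18.8% of all genes). With all arrays and a term for the female ones limma called Ccnb2, higher, and no member lower, against 3.27% of all genes (1.62% higher and 1.65% lower). In these whole-kidney extracts a change in the number of cycling cells and a change in mRNA per cell cannot be told apart.

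Most members nevertheless lay on the higher side with CsA. The difference was above 0 for 30 of 40 members, against 51.7% of all genes, and in males only for 33 of 40, against 50.2%. With centring on array medians 6 of the 30 fell below 0, and the share of all genes was not counted there. At an unadjusted p under 0.05 there were 12 members (20.8% of all genes), 10 higher and 2 lower, where 10.0% and 10.8% of all genes were. The 10 were Mcm4, Mcm5, Tk1, Mki67, Top2a, Ccna2, Ccnb2, Plk1, Kif23 and Cenpf, and the 2 were Nusap1 and Ect2. In males only the numbers were 12 higher (8.92% of all genes) and 1 lower (9.91%). The members share their arrays and do not vary independently. They were also chosen with earlier results of these data known, so these counts are a description.

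**Figure D3:**
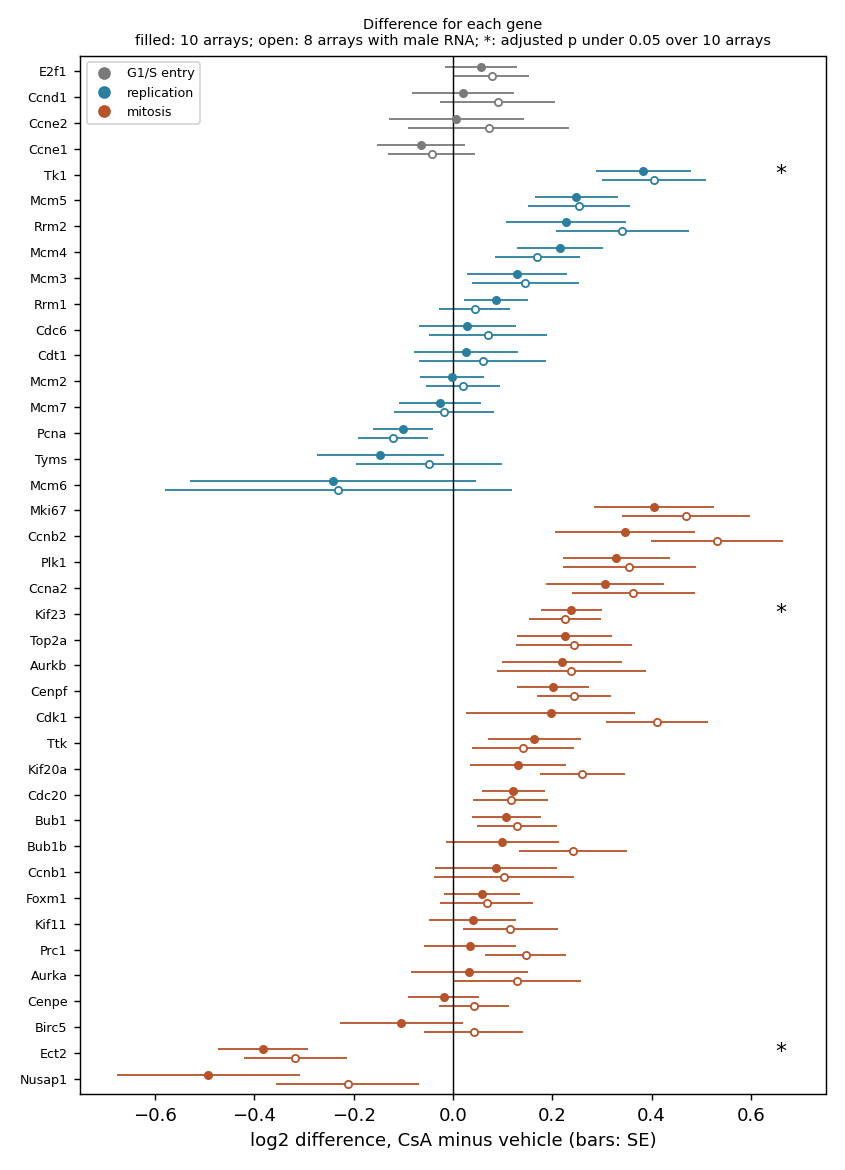
Log2 difference, CsA minus vehicle, with its SE (horizontal axis) for each of the 40 genes, filled for 10 arrays and open for the 8 arrays with male RNA, with asterisks at adjusted p under 0.05 over 10 arrays. Only Tk1, Kif23 and Ect2 carry asterisks, and among mitosis genes most points lie right of 0.

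The middle of the mitosis genes lay further above 0 than that of the replication genes. The median difference was 0.12 log2 units over the 23 mitosis genes, 0.03 over the 13 replication genes and 0.01 over the 4 G1/S genes, beside 0.01 over all genes. In males only the medians were 0.15, 0.06 and 0.08, beside 0.00 over all genes. The difference between the classes was not tested, and the median SE of a single member was 0.10. The difference was above 0 for 19 of 23 mitosis genes and 8 of 13 replication genes. The median level of the mitosis genes in each array was 4.49, 4.59, 4.96, 4.81 and 4.73 in CsA replicates 1 to 5 and 4.73, 4.55, 4.50, 4.69 and 4.59 in vehicle replicates 1 to 5. The groups overlapped, with the highest value in CsA replicate 3 and the lowest in CsA replicate 1. For replication genes the values were 6.09, 6.11, 6.15, 6.14 and 6.08 in CsA and 6.17, 6.04, 6.11, 5.94 and 5.85 in vehicle, also overlapping, with the highest in vehicle replicate 1.

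**Figure D4:**
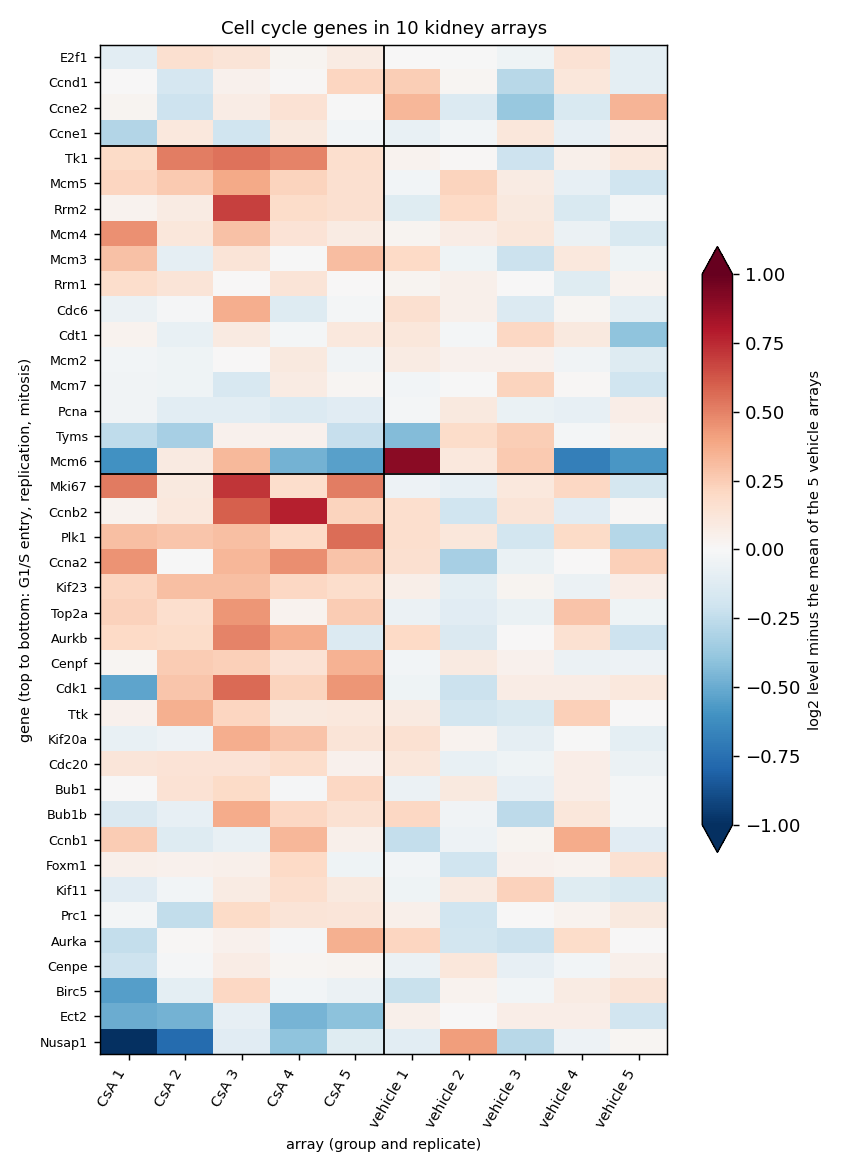
Log2 level minus the mean of the 5 vehicle arrays (colour, red higher and blue lower, clipped at 1 and -1) for the 40 genes (rows, by class and difference) in each array (columns). CsA replicate 3 is the reddest column, and Nusap1 and Ect2 at the bottom are blue in CsA.

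Among the genes of entry into the cycle none passed the test. Ccnd1, whose product cyclin D1 starts G1 progression, lay at 9.07, 8.90, 9.11, 9.08 and 9.28 in CsA and 9.31, 9.09, 8.79, 9.18 and 8.97 in vehicle. The groups overlapped over nearly their whole range, and the difference was 0.02 ± 0.10 (SE; limma adjusted p = 0.938). The cyclin E genes Ccne1 and Ccne2, which act with Cdk2 at the start of S phase, differed by -0.06 ± 0.09 and 0.01 ± 0.14. E2f1, an activating E2F, differed by 0.06 ± 0.07 (limma adjusted p = 0.715). In males only these 4 differences lay between -0.04 and 0.09, and limma called none of them.

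Among replication genes only Tk1, thymidine kinase 1 of the thymidine salvage route, passed the test. Its values were 6.08, 6.40, 6.43, 6.39 and 6.06 with CsA and 5.93, 5.90, 5.69, 5.94 and 6.00 with vehicle. Every CsA array was above every vehicle array, which also held for Plk1 and Kif23 among the members and for 4.04% of all genes. No member was lower in every CsA array, against 5.05% of all genes, so 3 of 40 were without overlap in either direction, against 9.09%. In males only 8 members were higher without overlap, against 6.98% of all genes, and they were Tk1, Cdk1, Ccna2, Ccnb2, Plk1, Prc1, Kif23 and Cenpf. The mean was 6.27 ± 0.19 against 5.89 ± 0.12 (SD, n = 5 each), a difference of 0.38 ± 0.10 (SE), or 1.30-fold (limma adjusted p = 0.0349). In males only the difference was as large, 0.40 ± 0.11, but missed the threshold (adjusted p = 0.0721), as it did after quantile normalization (0.0543) or without variance moderation (0.0630). With 1 array left out in turn, Tk1 passed without CsA replicate 1 (adjusted p = 0.0272), CsA replicate 5 (0.0260) or vehicle replicate 5 (0.0405). It missed without any of the others, at adjusted p = 0.0845, 0.0781 and 0.0735 without CsA replicates 2, 3 and 4 and 0.0653, 0.0731, 0.0856 and 0.0630 without vehicle replicates 1 to 4.

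The other nucleotide genes did not pass. Rrm2, the regulated subunit of ribonucleotide reductase, stood at 4.92, 4.96, 5.56, 5.07 and 5.04 in CsA and 4.76, 5.08, 4.98, 4.73 and 4.86 in vehicle. CsA replicate 3 stood apart and the remaining arrays overlapped, with a difference of 0.23 ± 0.12 (SE; limma adjusted p = 0.312) over 10 arrays and 0.34 ± 0.13 in males only (adjusted p = 0.206). Its partner Rrm1 differed by 0.09 ± 0.06, and Tyms, which makes thymidylate from deoxyuridylate, by -0.15 ± 0.13. In males only these were 0.04 ± 0.07 and -0.05 ± 0.15. Tyms had its lowest value, 6.37, in vehicle replicate 1.

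The differences of the MCM helicase genes varied in sign, and none passed. Mcm5 was at 5.94, 5.98, 6.10, 5.94 and 5.88 with CsA and 5.69, 5.94, 5.80, 5.64 and 5.52 with vehicle. Only vehicle replicate 2 reached into the CsA range, and the difference was 0.25 ± 0.08 (SE; limma adjusted p = 0.104) over 10 arrays and 0.25 ± 0.10 in males only (adjusted p = 0.219). Mcm4 differed by 0.22 ± 0.09 and Mcm3 by 0.13 ± 0.10, while Mcm2 and Mcm7 differed by -0.00 ± 0.06 and -0.03 ± 0.08, and none of these passed. Mcm6 varied widely within both groups, at 5.18, 5.88, 6.11, 5.32 and 5.24 in CsA and 6.69, 5.89, 6.05, 5.10 and 5.20 in vehicle. Its SD was 0.42 in CsA and 0.65 in vehicle, and its difference of -0.24 ± 0.29 was within that spread. The licensing factor genes Cdc6 and Cdt1, which load the helicase, each differed by 0.03 ± 0.10, and in males only by 0.07 ± 0.12 and 0.06 ± 0.13.

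Pcna, the clamp that holds DNA polymerase, was slightly lower in most CsA arrays. It read 7.76, 7.69, 7.68, 7.66 and 7.68 in CsA and 7.78, 7.89, 7.73, 7.71 and 7.86 in vehicle, a difference of -0.10 ± 0.06 (SE; limma adjusted p = 0.387). The 3 male CsA arrays lay below all vehicle arrays, as did 8.10% of all genes, without passing (-0.12 ± 0.07, adjusted p = 0.399).

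In the mitosis class Kif23 rose, Ect2 fell, and the proliferation marker Mki67 missed the threshold. Kif23 encodes the kinesin of the centralspindlin complex at the midzone of the dividing cell. Its values were 4.49, 4.58, 4.58, 4.48 and 4.45 with CsA and 4.34, 4.18, 4.31, 4.22 and 4.35 with vehicle, so the groups did not overlap. The mean was 4.52 ± 0.06 against 4.28 ± 0.07 (SD, n = 5 each), a difference of 0.24 ± 0.06 (SE), or 1.18-fold (limma adjusted p = 0.0411). This is a dim signal, below the 95th percentile of the olfactory receptor genes. In males only it was 0.23 ± 0.07 (adjusted p = 0.127), and it also missed after quantile normalization (0.0522), with centring (0.0931) and with trend and robust (0.0842). Kif23 passed without vehicle replicate 5 (adjusted p = 0.0463) and missed without any other single array, at adjusted p between 0.0555 and 0.103.

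Ect2 encodes the exchange factor for RhoA that centralspindlin brings to the midzone to drive the contractile ring. It read 6.37, 6.40, 6.79, 6.41 and 6.46 in CsA and 6.92, 6.87, 6.93, 6.94 and 6.68 in vehicle. CsA replicate 3 lay above vehicle replicate 5, and otherwise the CsA arrays were lower. The mean was 6.49 ± 0.17 against 6.87 ± 0.11, a difference of -0.38 ± 0.09 (SE), or 1.30-fold lower (limma adjusted p = 0.0278). In males only it was -0.32 ± 0.10 (adjusted p = 0.137). Leaving out CsA replicate 3 gave -0.46 (adjusted p = 0.00716), and leaving out vehicle replicate 5 gave -0.43 (0.0201). Without any other single array Ect2 missed the threshold, at adjusted p between 0.0566 and 0.0707. Ect2 was the brightest mitosis gene, at a mean of 6.68.

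**Figure D5:**
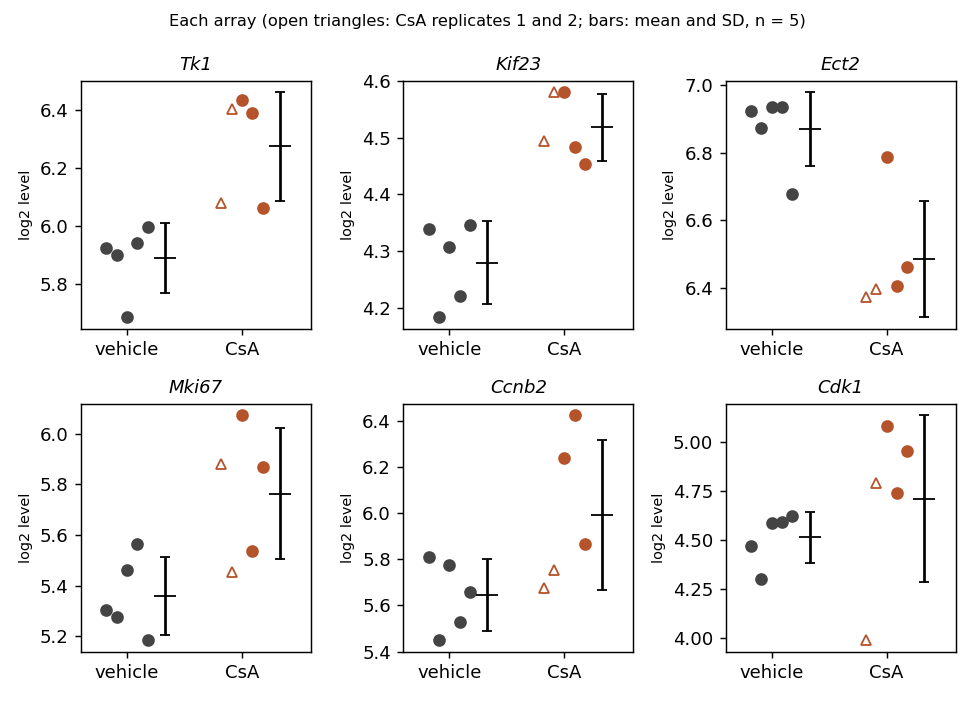
Log2 level (vertical axes, each with its own range not starting at 0) of 6 genes in each array of the vehicle and CsA groups, open triangles marking CsA replicates 1 and 2, and bars the mean and SD (n = 5). Tk1 and Kif23 do not overlap between groups, Ect2 overlaps through CsA replicate 3, and Cdk1 is lowest in CsA replicate 1 at 3.99.

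Mki67, the gene of the Ki-67 protein that coats mitotic chromosomes, had the largest positive difference among the 40 members over the 10 arrays. It stood at 5.88, 5.45, 6.07, 5.54 and 5.87 in CsA and 5.31, 5.27, 5.46, 5.57 and 5.18 in vehicle. CsA replicates 1, 3 and 5 were above all vehicle arrays and the other 2 were within the vehicle range. The difference was 0.40 ± 0.12 (SE; limma adjusted p = 0.0709), and 0.47 ± 0.13 in males only (adjusted p = 0.0862). It passed without CsA replicate 2 (0.48, adjusted p = 0.0424) and in no other fit that left out 1 array. It also passed with trend and robust (0.0461) and among genes above the median signal (0.0290).

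The cyclin genes Ccnb2 and Ccna2 and the kinase gene Cdk1 lay above all vehicle arrays in the male CsA arrays. None of them passed over 10 arrays or in males only. Ccnb2, cyclin B2, was at 5.68, 5.75, 6.24, 6.42 and 5.87 with CsA and 5.81, 5.45, 5.77, 5.53 and 5.66 with vehicle. Its 3 male CsA arrays were above all vehicle arrays and the 2 female ones within their range. The difference was 0.35 ± 0.14 (SE; limma adjusted p = 0.181) over 10 arrays and 0.53 ± 0.13 (adjusted p = 0.0626) in males only. With all arrays and a term for the female ones Ccnb2 passed (0.53, adjusted p = 0.0492). Cdk1, the kinase that drives entry into mitosis, read 3.99, 4.79, 5.08, 4.74 and 4.95 against 4.47, 4.30, 4.58, 4.59 and 4.62. CsA replicate 1 was the lowest of all arrays and the other 4 CsA arrays were above all vehicle arrays. Its difference was 0.20 ± 0.17 (adjusted p = 0.569), 0.41 ± 0.10 in males only (adjusted p = 0.0627), and 0.38 without CsA replicate 1, where it passed (adjusted p = 0.0429). Ccna2, cyclin A2, differed by 0.31 ± 0.12 and Ccnb1, cyclin B1, by 0.09 ± 0.12, neither past the threshold.

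None of the other mitotic kinase genes passed. Plk1 encodes a kinase of centrosomes and cytokinesis. Its values were 5.38, 5.35, 5.38, 5.28 and 5.64 in CsA and 5.24, 5.19, 4.89, 5.27 and 4.79 in vehicle, without overlap, with a difference of 0.33 ± 0.11 (SE; limma adjusted p = 0.0948) over 10 arrays and 0.36 ± 0.13 in males only (adjusted p = 0.188). Aurkb, the kinase of the chromosomal passenger complex, differed by 0.22 ± 0.12 and Aurka, the kinase of spindle poles, by 0.03 ± 0.12. The passenger complex subunit Birc5 (survivin) differed by -0.10 ± 0.12. The spindle checkpoint genes Bub1, Bub1b and Ttk differed by 0.11 ± 0.07, 0.10 ± 0.11 and 0.16 ± 0.09, and Cdc20, which activates the anaphase-promoting complex, by 0.12 ± 0.06. None of these passed. In males only the differences of Aurka and Bub1b were larger, 0.13 ± 0.13 and 0.24 ± 0.11, and that of Birc5 was 0.04 ± 0.10, also without passing.

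The remaining spindle and chromosome genes did not pass either. Nusap1, which bundles spindle microtubules, had the largest negative difference. It read 4.42, 4.70, 5.36, 5.07 and 5.35 in CsA and 5.36, 5.89, 5.19, 5.42 and 5.49 in vehicle, with CsA replicates 1 and 2 far below the others. The difference was -0.49 ± 0.18 (SE; limma adjusted p = 0.147) over 10 arrays and -0.21 ± 0.14 in males only. Top2a, which untangles sister chromatids, differed by 0.22 ± 0.09, and the kinetochore genes Cenpf and Cenpe by 0.20 ± 0.07 and -0.02 ± 0.07. The spindle motor genes Kif11 and Kif20a differed by 0.04 ± 0.09 and 0.13 ± 0.10, and the midzone bundler Prc1 by 0.03 ± 0.09. In males only these 3 differed by 0.12 ± 0.10, 0.26 ± 0.09 and 0.15 ± 0.08, and Cenpe by 0.04 ± 0.07, none past the threshold. Foxm1, the transcription factor of the late wave, differed by 0.06 ± 0.08 (limma adjusted p = 0.727).

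The CsA samples were not alike for these genes. CsA replicate 3, singled out after its values were seen, held the highest value of all 10 arrays for 12 of 40 members, 8 of them mitosis genes, against 9.34% of all genes. Each other array was highest for 1 to 5 members. The 12 members highest in CsA replicate 3 were Cdc6, Mcm5, Rrm2, Tk1, Mki67, Top2a, Cdk1, Aurkb, Bub1b, Birc5, Prc1 and Kif20a. The same array had the highest mean over 12 tubule injury markers, 7.14 against 6.65 to 6.78 in the other CsA arrays. Its mean over 7 CDK inhibitor genes, 6.64, was also the highest of all arrays, but only Cdkn1a among them was highest there. Their median in this array, 6.17, was below that in CsA replicate 5 (6.29) and vehicle replicate 1 (6.31). The macrophage marker mean of CsA replicate 3, 6.71, lay within the CsA range of 6.64 to 6.93. Its lymphocyte marker mean, 4.90, was the lowest of all arrays. A link between these lists and the members was not tested. The 2 CsA arrays with female RNA lay below the 3 with male RNA for 12 members, 9 of them mitosis genes, against 12.5% of all genes, and above them for Pcna alone, against 12.6%. Sex and animal cannot be told apart over these few samples.

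Of 102 further genes of the cycle, 3 rose and 3 fell, where 2.95% and 3.54% of all genes did. Counting by unadjusted p under 0.05, 15 were higher and 14 lower, beside 10.0% and 10.8% of all genes. Their median difference was 0.01, as over all genes, against 0.09 over the 40 members. By list, the median was 0.06 over 43 other mitosis genes and -0.02 over 34 other replication genes. It was -0.03 over 18 genes for G1 cyclins, their kinases, retinoblastoma proteins and E2Fs, and 0.06 over 7 CDK inhibitor genes. The difference between these lists was not tested. None of the 7 CDK inhibitor genes passed. Cdkn1a (p21), which halts the cycle after damage, lay at 7.88, 8.06, 8.81, 8.56 and 7.67 in CsA and 7.28, 8.43, 7.37, 7.55 and 8.58 in vehicle. It varied widely in both groups, with a difference of 0.35 ± 0.29 (SE; limma adjusted p = 0.542). The differences of Cdkn1b, Cdkn1c, Cdkn2a, Cdkn2b, Cdkn2c and Cdkn2d were 0.07, 0.03, 0.13, 0.06, -0.12 and -0.08. In males only that of Cdkn1a was 0.50 ± 0.35 (adjusted p = 0.491), and those of the others were 0.10, -0.01, 0.13, 0.03, -0.12 and -0.08.

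Of 18 genes for G1 cyclins, their kinases, retinoblastoma proteins and E2Fs, Cdk4, the kinase of cyclin D, rose 1.20-fold (0.26 ± 0.07; limma adjusted p = 0.0492). Of 34 other replication genes none rose and 2 fell. The gene of the origin recognition subunit Orc4 fell by 0.34 and Mcm10 by 0.24 on the log2 scale (limma adjusted p = 0.0151 and 0.0454). Of 43 other mitosis genes 2 rose and 1 fell. Ube2c, the ubiquitin-conjugating enzyme of the anaphase-promoting complex, rose 1.51-fold (0.60 ± 0.11; limma adjusted p = 0.00899) and the kinetochore gene Nuf2 1.29-fold (adjusted p = 0.0327). The mean signals of Ube2c and Nuf2, 4.67 and 4.30, were below the 95th percentile of the olfactory receptor genes. Lin9, a subunit of the MuvB complex, fell by 0.33 (adjusted p = 0.0390). In males only none of these 6 passed, at adjusted p between 0.0519 and 0.136. Of the 102, Uhrf1, which maintains DNA methylation at replication forks, was then the only gene called (0.38, adjusted p = 0.0398). With all arrays and the term for the female ones, limma called Ube2c and Uhrf1 higher (adjusted p = 0.046 and 0.033) and Orc4 lower (0.049).

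Markers of macrophages and of tubule injury had median differences of 0.54 and 0.40, beside 0.09 over the 40 members, and their part in the small differences above was not tested. Of 12 macrophage markers 9 rose and none fell, 8 in males only. The mean log2 level of the list was 6.64 to 6.93 in CsA arrays and 6.10 to 6.30 in vehicle arrays. Its brightest genes were C1qb, a complement component gene, which was 0.99 ± 0.11 higher (SE; limma adjusted p = 0.000508), and Csf1r, which differed by 0.09 ± 0.07. Of 12 tubule injury markers 7 rose and none fell, 4 in males only, with list means of 6.65 to 7.14 against 6.15 to 6.30. Its brightest genes Spp1 and Clu were 0.92 and 0.47 log2 units higher (adjusted p = 0.00106 and 0.00812).

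Markers of other dividing or admixed cells were examined in the same way. Of 10 lymphocyte markers 0 passed limma's adjusted test and 1, Ptprc, had an unadjusted p under 0.05. List means were 4.90 to 5.22 in CsA and 4.93 to 5.17 in vehicle. The leucocyte gene Ptprc differed by 0.39 ± 0.12 (limma adjusted p = 0.0712) and Cd3e by 0.05 ± 0.10. Of 6 measured erythroid markers 0 passed limma's test over 10 arrays, and Hbb-bt, which alone had an unadjusted p under 0.05, passed in males only (1.21, adjusted p = 0.00503). Their list means were 4.63 to 5.13 in CsA and 4.62 to 4.92 in vehicle, and Slc4a1 and Alas2 differed by 0.01 ± 0.11 and 0.02 ± 0.15. Of 7 adipocyte markers Retn rose over 10 arrays and Retn and Cfd in males only, with list means of 5.53 to 6.15 against 5.30 to 5.90. The median difference of the adipocyte list was 0.27 over 10 arrays and 0.65 in males only, where 6 of 7 were higher at an unadjusted p under 0.05, beside 0.53 for macrophage and 0.40 for tubule injury markers in males only. Fabp4 and Cfd, the brightest of the adipocyte list, differed by 0.20 ± 0.27 and 0.51 ± 0.16, and the part of this list in the results was not tested. Of 10 kidney tubule and podocyte markers 0 passed limma's test over 10 arrays, 3 had an unadjusted p under 0.05, and Slc12a3 was lower in males only (-0.43, adjusted p = 0.0306). Genes named for passing here were chosen after their values were seen. The array scale has no 0, so no marker can be called absent.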

How the data were processed

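Kidney RNA of 10 samples was read on 10 Affymetrix Mouse Gene ST 2.0 arrays, 200 ng of RNA each, per the labels' protocols. The deposited log2 expression values were made by the authors with RMA and Partek 6.4, per the submitters' processing notes, which give no order or settings. The annotation version and genome build are not given in the sources used here, and depth does not apply to arrays, so their number limits the precision. Both deposited tables held the same values for 41345 features (largest difference 0), of which 8874 had no gene symbol. Names were updated through RefSeq (GRCm38.p6), by accession for 21745 features, and 14 symbols turned into dates or numbers were recovered from the assignment column. For a gene with several features the one with the highest mean was used, giving 30894 genes, dim ones included.

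The comparison of CsA and vehicle used limma 3.58.1 (R 4.3.3, lmFit and eBayes, two-sided, no covariate), with Benjamini-Hochberg adjustment over all genes and a threshold of 0.05. Replicates were numbered in order of their records and are not pairs. The members, lists and alternatives were chosen with earlier results of these data known. All 40 members were named. Of the other cell cycle lists every CDK inhibitor was named and up to 4 called genes per list with the smallest p, and of each marker list the 2 genes with the highest mean. Other genes are named only after seeing their values. The procedure was also run on simulated arrays in which genes varied independently and sex was not modelled. That run does not bear on how far the calls above hold. The alternatives were males only, a term for the female arrays, each array left out, a filter at the median signal, quantile normalization, eBayes with trend and robust, centring on array medians, no moderation, and the mean of a gene's features. The comparison of males only without CsA replicate 3 was added after seeing the data.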

Additional observations from a re-analysis of the deposited data

Results flagged for a closer look

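In 7 of 80 comparisons of 1 gene within 1 group, an array stood far from the 4 others by Dixon's test, which flags about 1 in 20 groups by chance. CsA replicate 3 was high for Cdc6 (4.68, others 4.19 to 4.31), Rrm2 (5.56, others 4.92 to 5.07) and Ect2 (6.79, others 6.37 to 6.46). CsA replicate 5 was high for Plk1 (5.64, others 5.28 to 5.38). Vehicle replicate 4 was low for Rrm1 (6.37, others 6.49 to 6.54) and high for Top2a (4.35, others 3.96 to 4.03). Vehicle replicate 5 was low for Ect2 (6.68, others 6.87 to 6.94).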

How the results depend on the processing

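The calls were fragile. Members called higher and lower numbered 2 and 1 over 10 arrays, 0 and 0 in males only, also without CsA replicate 3, and 1 and 0 once female arrays had a term, where Ccnb2 was called (0.53, adjusted p = 0.0492). Limma called 0 higher after quantile normalization and 1 each with centring or no moderation. With 1 array left out, 0 to 2 were higher and 0 to 1 lower. Of the 102 further genes 3 were higher and 3 lower, 1 and 0 in males only, and 0 and 0 there without CsA replicate 3. The numbers were 7 and 6 with the filter on dim genes and 2 and 1 with the term for female arrays. With centring 1 was higher. With 1 array left out, 1 to 3 were higher and 1 to 3 lower. With that filter Mki67 (adjusted p = 0.0290) and Mcm5 (0.0408) were called too, over fewer genes tested. Why other settings changed calls was not tested.

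No alternative moved a class median by more than 1 SD between arrays (0.145 for mitosis, 0.0932 for replication, 0.0911 for G1/S), although the mitosis median itself was near that SD, 0.12 over 10 arrays. The mitosis median lay between 0.10 and 0.16 with 1 array left out and was 0.08 with centring, while the replication median lay between 0.00 and 0.08 and was -0.01 with centring. The G1/S median changed sign, between -0.04 and 0.07 with 1 array left out and -0.02 with centring.

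Of 738 member values under 19 alternatives, 647 kept direction and side of the threshold, and 47, of 11 members, changed sign, all of members not called. In males only and with the term, Mcm2, Birc5 and Cenpe became 0.0208, 0.0417 and 0.0424. Quantile normalization made Ccne2 -0.011, Cdt1 -0.0043 and Aurka -0.0015. Centring made Ccnd1 -0.018, Ccne2 -0.0316, Cdc6 -0.0102, Cdt1 -0.0117, Aurka -0.0053 and Prc1 -0.0047. Males only without CsA replicate 3 gave Ccne1 0.0353, Cdc6 -0.0757, Mcm2 0.03, Mcm7 0.0529 and Cenpe 0.0258. With 1 array left out, the ranges were -0.0489 to 0.0819 for Ccnd1, -0.0881 to 0.0916 for Ccne2, -0.0554 to 0.0683 for Cdc6, -0.0729 to 0.0797 for Cdt1, -0.0332 to 0.0185 for Mcm2, -0.0755 to 0.0289 for Mcm7, -0.0464 to 0.10 for Aurka, -0.18 to 0.0076 for Birc5, -0.0151 to 0.10 for Prc1 and -0.0417 to 0.0281 for Cenpe. No paired analysis was possible because the labels give no replicate numbers shared between groups.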
